A study of Mus musculus with 9 samples.

Results

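The genes described here encode the enzymes that place sulfate on heparan sulfate and later edit it. They were chosen by name: 10 genes of the 78275 gene IDs counted, namely the N-deacetylase/N-sulfotransferases Ndst1, Ndst2 and Ndst3, the epimerase Glce, the 2-O-sulfotransferase Hs2st1, the 6-O-sulfotransferases Hs6st1 and Hs6st2, the 3-O-sulfotransferase Hs3st1, and the extracellular sulfatases Sulf1 and Sulf2. All 10 were matched by Ensembl ID to GENCODE M21, and all 10 passed the filter on low counts.

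The study sequenced RNA of sorted mCherry+ cells from embryonic mouse forebrain, labelled as cortical progenitors and neurons. Wild-type embryos received, by in utero electroporation at E14.5, a plasmid carrying mCherry and a small hairpin RNA built into a microRNA. Cells were sorted by flow cytometry 48 hours later, at E16.5 (E, embryonic day). The hairpin was against Gpc4 (sh-Gpc4, 3 libraries), against Gpc2 (sh-Gpc2, 3 libraries) or a non-targeting control (sh-NT, 3 libraries). Gpc4 and Gpc2 encode glypicans, cell-surface proteins that carry heparan sulfate chains. All groups therefore share the surgery, the mCherry plasmid and the sort, and differ in the hairpin. Libraries are called by the numbers of their count columns, which are 1, 3 and 4 for sh-Gpc4 and 1, 2 and 4 for both other groups. No label ties the libraries of a group to different litters or animals, so each p-value reflects spread among these libraries alone, and that spread may be technical.

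Heparan sulfate is a long sugar chain that is polymerised in the Golgi and then modified step by step. The NDST enzymes act first, replacing acetyl groups by sulfate on stretches of the chain; Glce then turns glucuronic acid into iduronic acid there, and Hs2st1, the HS6ST enzymes and the HS3ST enzymes add sulfate at further positions. After the chain has reached the cell surface, Sulf1 and Sulf2 remove 6-O-sulfate groups. The sulfation pattern governs the binding of fibroblast growth factors, Wnts and axon guidance proteins to the chain, and mouse mutants of Hs2st1 or Hs6st1 have defects in forebrain axon tracts.

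Several steps of the pathway are carried out by related isoforms whose coding sequences resemble each other. For 3 pairs of isoforms, the stretch around the longest run of identical coding bases is shown, as a view of how far a read could be assigned to one of them. Other stretches of a pair may be more alike over 60 bases, which was not searched. The sequences are 60-base windows of the coding sequence from GENCODE M21 on GRCm38, 5′ to 3′ on the gene's own strand, and capitals mark the bases at which the members of a pair differ. The windows lie at chr1:36068908-36068967 on the plus strand for Hs6st1, at chrX:51680107-51680166 on the minus strand for Hs6st2, at chr14:20729639-20729698 on the minus strand for Ndst2 and at chr3:123671811-123671870 on the minus strand for Ndst3. The Sulf windows cross a splice junction within chr1:12786660-12796786 on the plus strand for Sulf1 and within chr2:166117091-166132626 on the minus strand for Sulf2.
Hs6st1: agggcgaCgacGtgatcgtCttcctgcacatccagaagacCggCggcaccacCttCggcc
Hs6st2: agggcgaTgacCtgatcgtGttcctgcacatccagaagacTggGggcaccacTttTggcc
Sulf1: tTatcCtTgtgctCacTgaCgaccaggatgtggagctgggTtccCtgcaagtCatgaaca
Sulf2: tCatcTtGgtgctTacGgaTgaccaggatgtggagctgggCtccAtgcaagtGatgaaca
Ndst2: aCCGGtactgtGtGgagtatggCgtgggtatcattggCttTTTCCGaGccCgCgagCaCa
Ndst3: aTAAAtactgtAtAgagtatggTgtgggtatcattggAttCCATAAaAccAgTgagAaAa

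In these windows the members of a pair were distinguishable. Hs6st1 and Hs6st2 differed at 7 of 60 bases, Sulf1 and Sulf2 at 9, and Ndst2 and Ndst3 at 19. The longest run of identical coding bases was 20 for each of the HS6ST and Sulf pairs, 14 for Ndst2 and Ndst3, 17 for Ndst1 and Ndst3 and 23 for Ndst1 and Ndst2, and no stretch of 50 bases was shared within any of the 5 pairs compared. Reads of 50 bases or more from the coding sequence therefore did not have an exact copy in the partner gene. Genes of the HS3ST family, Ndst4 and Hs6st3 were not compared in this way. Exons of 3 members overlap another annotated gene: Hs6st1 shares 447 bases with the antisense gene Gm37335, Sulf2 shares 154 bases with Ncoa3 on the opposite strand, and Glce shares 77 bases with Mir5133. Use of strand in the counting is not stated in the sources used, so it is unknown whether reads of the Hs6st1 and Sulf2 stretches were told apart. Glce and Mir5133 lie on the same strand, so strand cannot separate their reads.

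Total counts ran from 48045603 to 66538437 reads per library. In a principal component analysis, the first component held 71.6% of the variance, and sh-Gpc4 library 3 (score 46.7) and sh-Gpc2 library 4 (score 36.6) lay apart from the other 7 libraries (scores of -25.8 to 15.8). Below, "without the libraries that lie apart" means that both were left out of the fit, and the members' fold changes relative to sh-NT are given both ways. CPM (the read count scaled to library size with TMM factors) is the scale used for comparing a gene between libraries. Gpc4 had 137, 99.9 and 129 CPM in sh-Gpc4 libraries, against 165, 188 and 175 CPM in sh-NT libraries, with no overlap (log2 fold change -0.53, edgeR quasi-likelihood test, adjusted p = 0.488; -0.41 without the libraries that lie apart). Gpc2 had 167, 145 and 79.6 CPM in sh-Gpc2 libraries, against 200, 207 and 161 CPM in sh-NT libraries, with overlap (log2 fold change -0.54, edgeR quasi-likelihood test, adjusted p = 0.968; -0.29 without the libraries that lie apart). Both targets were therefore lower on average in the libraries labelled with their hairpin, but neither difference passed the test. Gpc2 also had a log2 fold change of -0.76 in sh-Gpc4 relative to sh-NT (edgeR quasi-likelihood test, adjusted p = 0.488; -0.53 without the libraries that lie apart). Gpc2 was lowest, within sh-Gpc4 and within sh-Gpc2, in the library that lies apart. Defining markers of the labelled cells were abundant: the 8 radial glia markers summed to 1592 to 2092 CPM in sh-Gpc4, 1884 to 2638 CPM in sh-Gpc2 and 1837 to 1985 CPM in sh-NT. The 8 markers of newborn and cortical neurons summed to at least 3582 CPM in each library. The 7 microglia markers were all detected and summed to 784 to 1265 CPM in sh-Gpc4, 377 to 1174 CPM in sh-Gpc2 and 680 to 1024 CPM in sh-NT; none was at 0. In bulk RNA, fewer cells of a type and less RNA per cell cannot be told apart.

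The levels of the enzymes covered a far wider range than the libraries of any one of them. To compare genes, CPM was divided by the length of the longest annotated transcript in kilobases. On this scale Hs3st1 was the highest of the 10, with 84.1 ± 1.97 CPM per kb in sh-Gpc4, 79.8 ± 1.86 in sh-Gpc2 and 80.8 ± 3.94 in sh-NT (SD, n = 3 each). Hs6st2 followed, with 47.9 ± 0.778 CPM per kb in sh-Gpc4, 44.1 ± 4.14 in sh-Gpc2 and 47.5 ± 5.33 in sh-NT. Ndst3 came next, with 11.9 ± 0.906 CPM per kb in sh-Gpc4, 10.6 ± 0.541 in sh-Gpc2 and 11.1 ± 0.740 in sh-NT. These 3 genes stood in this order in all 9 libraries, and their ranges did not overlap.

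Below them, the means over the 9 libraries were 5.78 CPM per kb for Glce, 5.17 for Ndst1, 3.98 for Hs6st1 and 3.95 for Hs2st1. Glce exceeded Ndst1 in 6 of 9 libraries and Hs6st1 exceeded Hs2st1 in 5 of 9, so the order within these neighbouring pairs was not fixed. Ndst2 averaged 1.59 CPM per kb and Sulf2 1.23, with overlapping ranges, although Ndst2 was the higher in each of the 9 libraries. Sulf1 was the lowest, at 0.0827 CPM per kb, and its range of 0.0214 to 0.141 lay below that of Sulf2, 1.06 to 1.54. The order depends partly on the length used. With coding length Hs2st1 moved to place 4, close to Ndst3 (means of 22.9 and 23.8 CPM per kb). Their ranges then overlapped, and Ndst3 was the higher in 6 of 9 libraries. With merged exon length Hs2st1 passed Hs6st1, and without length scaling Hs6st2 (202 CPM) stood above Hs3st1 (138 CPM).

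**Figure D1:**
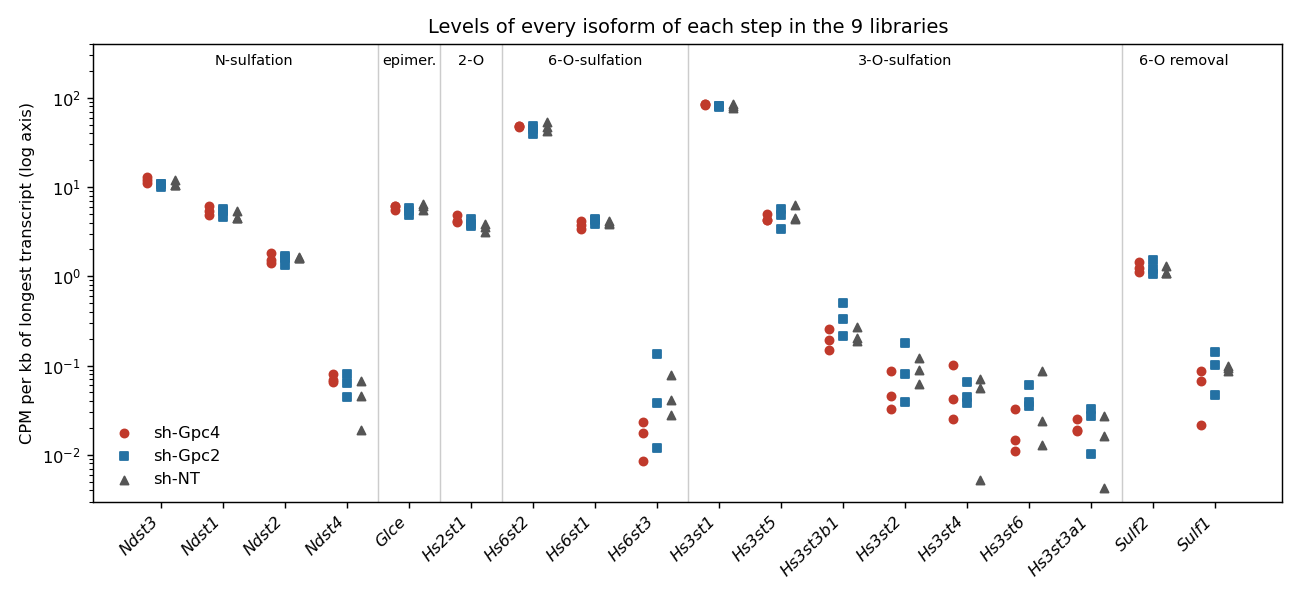
Level of each member and of the 8 other isoforms in CPM per kb of longest transcript on a log axis, ordered by step, with 1 point per library and groups from left to right sh-Gpc4, sh-Gpc2 and sh-NT. Hs3st1 and Hs6st2 lie at the top (means of 81.6 and 46.5 over the 9 libraries), and Sulf1 (mean of 0.0827) lies among the trace-level isoforms.

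At the N-sulfation step, Ndst3 was the leading isoform. It made up 62.9 ± 2.58% of the summed CPM per kb of Ndst1, Ndst2 and Ndst3 in sh-Gpc4, 60.9 ± 1.50% in sh-Gpc2 and 63.3 ± 2.95% in sh-NT (SD, n = 3 each). Ndst1 made up 28.7 ± 2.02%, 30.2 ± 1.24% and 27.4 ± 2.91% in the same groups, and Ndst2 the remaining 8.42 ± 1.53%, 8.89 ± 0.495% and 9.29 ± 0.252%. Over the 9 libraries the Ndst3 share ran from 59.7% to 66.1%, so it exceeded the other members together in each of them. The ratio of Ndst3 to Ndst1 in CPM per kb was 2.48, 2.10 and 2.02 in sh-Gpc4 libraries, 2.01, 2.16 and 1.90 in sh-Gpc2 libraries, and 2.67, 2.35 and 1.97 in sh-NT libraries, and the 3 groups overlap. The remaining gene of the family, Ndst4, was at trace level, with a mean of 0.0595 CPM per kb over the 9 libraries.

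**Figure D2:**
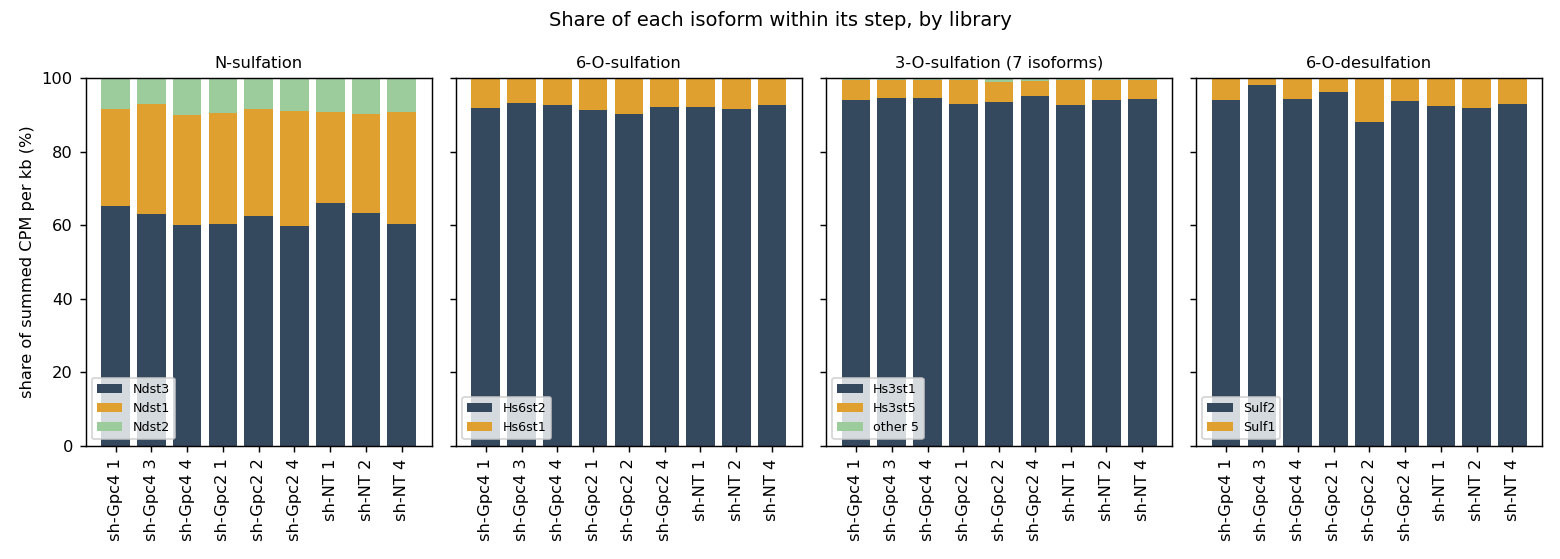
Share of each isoform, in percent, of the summed CPM per kb of its step, as 1 stacked bar per library, with the libraries of sh-Gpc4, sh-Gpc2 and sh-NT from left to right. Ndst3 (59.7% to 66.1%), Hs6st2 (90.4% to 93.3%), Hs3st1 (92.7% to 95.2%) and Sulf2 (88.2% to 98.3%) lead their steps in each of the 9 libraries.

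Ndst1 had 31.3, 39.6 and 35.3 CPM in sh-Gpc4 libraries, 35.2, 29.8 and 37.0 CPM in sh-Gpc2 libraries and 28.9, 29.3 and 34.8 CPM in sh-NT libraries. Ndst1 is the isoform on which most N-sulfation in mouse embryos depends; its sh-Gpc4 and sh-Gpc2 means were the higher, but all groups overlap. Its log2 fold changes were 0.19 ± 0.13 in sh-Gpc4 and 0.13 ± 0.13 in sh-Gpc2 relative to sh-NT (± SE, edgeR quasi-likelihood test, adjusted p = 0.530 and 0.968). Ndst1 was highest, within sh-Gpc4 and within sh-Gpc2, in the library that lies apart, and without those libraries the values were 0.10 and 0.055. Ndst2, which in mice is needed for heparin synthesis in mast cells, had 5.89, 5.56 and 7.17 CPM in sh-Gpc4, 6.64, 5.23 and 6.27 CPM in sh-Gpc2 and 6.39, 6.28 and 6.33 CPM in sh-NT. The sh-NT libraries differed little from each other and lay inside the range of both knockdown groups. Relative to sh-NT, the log2 fold changes of Ndst2 were -0.03 in sh-Gpc4 and -0.07 in sh-Gpc2, and 0.04 and -0.11 without the libraries that lie apart.

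Ndst3 had 66.7, 71.5 and 61.4 CPM in sh-Gpc4 libraries, 60.8, 55.4 and 60.4 CPM in sh-Gpc2 libraries and 66.3, 59.4 and 59.0 CPM in sh-NT libraries. Each sh-Gpc4 library lay above each sh-Gpc2 library, while sh-NT overlapped with both. Between sh-Gpc4 and sh-Gpc2 the log2 fold change was 0.18 ± 0.10 (ratio 95% interval 0.973 to 1.31, edgeR quasi-likelihood test, adjusted p = 0.966). Without the libraries that lie apart it was 0.14. Relative to sh-NT it was 0.11 in sh-Gpc4 and -0.07 in sh-Gpc2, and 0.05 and -0.10 without those libraries.

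Glce, the only C5-epimerase of the pathway, had 29.5, 26.8 and 29.6 CPM in sh-Gpc4 libraries, 25.9, 28.4 and 23.7 CPM in sh-Gpc2 libraries and 29.9, 31.6 and 27.0 CPM in sh-NT libraries. The sh-Gpc2 mean was the lowest, with libraries overlapping those of both other groups. Its log2 fold change in sh-Gpc2 relative to sh-NT was -0.18 ± 0.11 (ratio 95% interval 0.742 to 1.05, edgeR quasi-likelihood test, adjusted p = 0.968), and -0.13 without the libraries that lie apart. In sh-Gpc4 it was -0.04, and -0.0052 without those libraries.

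Hs2st1, the single 2-O-sulfotransferase, had 25.9, 24.7 and 29.9 CPM in sh-Gpc4 libraries, 22.9, 23.9 and 27.4 CPM in sh-Gpc2 libraries and 22.1, 19.5 and 23.5 CPM in sh-NT libraries. Each sh-Gpc4 library lay above each sh-NT library; the sh-Gpc2 libraries overlapped with both. Relative to sh-NT, Hs2st1 in sh-Gpc4 was at a ratio of 1.24 (95% interval 1.02 to 1.50; log2 fold change 0.31 ± 0.12, edgeR quasi-likelihood test, unadjusted p = 0.0348, adjusted p = 0.488). Over the alternative settings and tools its log2 fold change ran from 0.22 to 0.43 and its adjusted p from 0.0531 to 0.963. The value of 0.0531 came from limma voom and was also the smallest adjusted p over all genes in that fit. There, 9011 of 27773 genes and 3 of 10 members had an unadjusted limma voom p under 0.05. The difference did not pass the test, and the unadjusted p exceeded 0.05 in 4 of the 6 fits that left out 1 library: it was 0.142 without sh-Gpc4 library 4, 0.134 without sh-NT library 2, 0.0698 without sh-NT library 1 and 0.0527 without sh-Gpc4 library 1. With no filter on low counts it was 0.0508. Leaving out both libraries that lie apart gave a log2 fold change of 0.35. In sh-Gpc2 the log2 fold change relative to sh-NT was 0.19 ± 0.12, and 0.09 without those libraries.

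Hs2st1 was the single member of 10 with an unadjusted edgeR p under 0.05 in sh-Gpc4 against sh-NT, and the single member whose groups did not overlap there. Of all 27773 genes tested, 9.57% had an unadjusted p under 0.05 in either direction and 24.0% had groups that did not overlap. The count of 1 member in 10 is close to the first of these shares and below the second.

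At the 6-O-sulfation step, Hs6st2 made up nearly all of the summed level. Its share of the CPM per kb of Hs6st1 and Hs6st2 was 92.7 ± 0.633% in sh-Gpc4, 91.3 ± 0.893% in sh-Gpc2 and 92.2 ± 0.560% in sh-NT (SD, n = 3 each), and ran from 90.4% to 93.3% over the 9 libraries. The remaining gene of the family, Hs6st3, had between 1 and 13 reads per library and was not tested. Hs6st2 had 210, 204 and 211 CPM in sh-Gpc4 libraries, 208, 173 and 195 CPM in sh-Gpc2 libraries and 203, 185 and 231 CPM in sh-NT libraries. The sh-Gpc4 libraries lay close together, within the wider range of sh-NT. Its log2 fold changes relative to sh-NT were 0.01 ± 0.10 in sh-Gpc4 and -0.11 ± 0.10 in sh-Gpc2, with ratio 95% intervals of 0.859 to 1.18 and 0.791 to 1.09; without the libraries that lie apart they were 0.02 and -0.13. Hs6st1 had 15.5, 12.6 and 14.0 CPM in sh-Gpc4, 16.46, 15.7 and 14.2 CPM in sh-Gpc2 and 14.9, 14.4 and 15.4 CPM in sh-NT. All groups of Hs6st1 overlap, and its log2 fold changes relative to sh-NT were -0.09 in sh-Gpc4 and 0.05 in sh-Gpc2, and -0.02 and 0.10 without the libraries that lie apart.

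**Figure D3:**
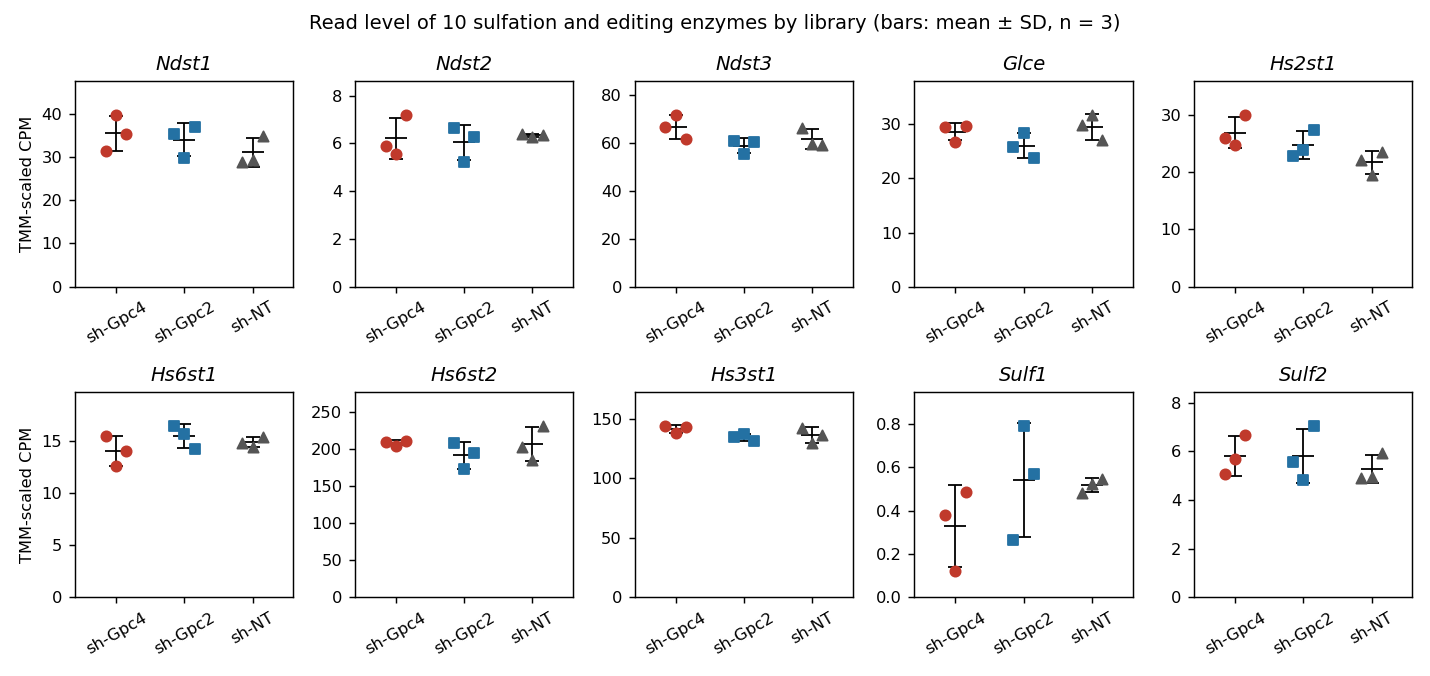
CPM of each of the 10 members in each library, with the group mean and SD (n = 3) for sh-Gpc4, sh-Gpc2 and sh-NT; each panel has its own axis. In the Hs2st1 panel the sh-Gpc4 libraries (24.7 to 29.9 CPM) lie above the sh-NT libraries (19.5 to 23.5 CPM); in the other panels sh-Gpc4 and sh-NT overlap.

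At the 3-O-sulfation step, Hs3st1, which in mice makes most of the antithrombin-binding heparan sulfate, was compared with the other 6 genes of its family. It made up 94.5 ± 0.373% of the summed CPM per kb of the 7 genes in sh-Gpc4, 93.9 ± 1.18% in sh-Gpc2 and 93.7 ± 0.924% in sh-NT (SD, n = 3 each). Hs3st5 was the only other isoform above 1 CPM per kb, with shares of 5.09 ± 0.331%, 5.46 ± 1.25% and 5.80 ± 0.940% in the same groups. Hs3st1 had 144, 138 and 143 CPM in sh-Gpc4 libraries, 135, 137 and 131 CPM in sh-Gpc2 libraries and 143, 129 and 137 CPM in sh-NT libraries. The sh-Gpc4 libraries lay above the sh-Gpc2 libraries by a narrow margin, and sh-NT overlapped with both. Its log2 fold changes were 0.06 ± 0.07 in sh-Gpc4 and -0.02 ± 0.07 in sh-Gpc2 relative to sh-NT, with ratio 95% intervals of 0.926 to 1.17 and 0.879 to 1.11; without the libraries that lie apart they were 0.07 and -0.01. Between sh-Gpc4 and sh-Gpc2, the groups of Hs3st1 and Ndst3 did not overlap, with sh-Gpc4 the higher; 5.50% of all tested genes had groups that did not overlap in that comparison, and no member had an unadjusted p under 0.05 (2.89% of all tested genes).

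Hs3st1 was also the steadiest member. Its highest library was 1.11 times its lowest, and 98.9% of the 13458 tested genes above 5 CPM on average had a larger SD of log2 CPM over the 9 libraries. The median SD of those genes was 0.164 on the log2 scale. The set reaches down to 5 CPM, where counting noise is larger than at the mean of 138 CPM of Hs3st1. The same ratio of highest to lowest library was 1.29 for Ndst3, 1.31 for Hs6st1, 1.33 for Glce, 1.34 for Hs6st2, 1.37 for both Ndst1 and Ndst2, 1.45 for Sulf2 and 1.53 for Hs2st1. Of these, Hs2st1 and Sulf2 varied somewhat more than the median gene above 5 CPM, with 45.2% and 42.9% of genes more variable. For Sulf1, with a mean of only 0.463 CPM, the ratio of highest to lowest library was 6.59.

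Hs3st5 had 15.3, 13.3 and 13.3 CPM in sh-Gpc4 libraries, 17.7, 14.9 and 10.5 CPM in sh-Gpc2 libraries and 19.3, 13.7 and 13.5 CPM in sh-NT libraries, and its groups overlap. Hs3st3b1 had 1.26, 0.960 and 0.736 CPM in sh-Gpc4, 1.04, 2.44 and 1.63 CPM in sh-Gpc2 and 0.933, 0.996 and 1.33 CPM in sh-NT. The high sh-Gpc2 mean came mostly from library 2, and between sh-Gpc4 and sh-Gpc2 its log2 fold change was -0.80 ± 0.32 (edgeR quasi-likelihood test, unadjusted p = 0.0342, adjusted p = 0.966). The other isoforms were at trace level, with means over the 9 libraries of 0.0815 CPM per kb for Hs3st2, 0.0499 for Hs3st4, 0.0352 for Hs3st6 and 0.0201 for Hs3st3a1. How far reads of the HS3ST genes could be assigned to one of them was not checked. Of the 8 other isoforms, 5 had enough reads to be tested, and none passed the adjusted threshold in any of the 3 comparisons.

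At the editing step, Sulf2 was the leading sulfatase, with 95.6 ± 2.31% of the summed CPM per kb of Sulf1 and Sulf2 in sh-Gpc4, 92.7 ± 4.11% in sh-Gpc2 and 92.5 ± 0.476% in sh-NT (SD, n = 3 each). Sulf2 had 5.05, 5.67 and 6.67 CPM in sh-Gpc4 libraries, 5.54, 4.84 and 7.04 CPM in sh-Gpc2 libraries and 4.92, 4.95 and 5.94 CPM in sh-NT libraries. Library 4 was the highest of each group. Its log2 fold change relative to sh-NT was 0.14 ± 0.18 in both sh-Gpc4 and sh-Gpc2 (ratio 95% interval 0.834 to 1.45 in sh-Gpc4), and without the libraries that lie apart it was 0.15 in sh-Gpc4 and -0.03 in sh-Gpc2. The summed microglia markers were 911, 784 and 1265 CPM in the sh-Gpc4 libraries, 1174, 377 and 1077 CPM in the sh-Gpc2 libraries and 680, 728 and 1024 CPM in the sh-NT libraries. They too were highest in library 4 of sh-Gpc4 and of sh-NT; their part in the Sulf2 values was not tested.

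Sulf1 had 19, 8 and 33 reads in sh-Gpc4 libraries, 15, 49 and 28 reads in sh-Gpc2 libraries and 30, 31 and 31 reads in sh-NT libraries. These correspond to 0.380, 0.120 and 0.486 CPM in sh-Gpc4, 0.265, 0.791 and 0.570 CPM in sh-Gpc2 and 0.483, 0.523 and 0.548 CPM in sh-NT. The lowest value was that of sh-Gpc4 library 3, one of the libraries that lie apart. The log2 fold change of sh-Gpc4 relative to sh-NT was -0.66 ± 0.49 (ratio 95% interval 0.297 to 1.35, edgeR quasi-likelihood test, adjusted p = 0.546). Without the libraries that lie apart it was -0.25. In sh-Gpc2 the log2 fold change of Sulf1 relative to sh-NT was 0.07 ± 0.47, and 0.02 without those libraries. The SE of Sulf1 was the largest of the 10 members in both comparisons.

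Transcripts for adding 6-O-sulfate were more abundant than those for removing it in each library. The summed CPM per kb of Hs6st1 and Hs6st2 was 44.7, 40.0 and 33.9 times that of Sulf1 and Sulf2 in sh-Gpc4 libraries, 41.6, 36.6 and 29.6 times in sh-Gpc2 libraries, and 43.7, 39.6 and 41.0 times in sh-NT libraries. The groups overlap, and the lowest ratio of sh-Gpc4 and of sh-Gpc2 was in library 4, where Sulf2 was highest. RNA levels do not measure enzyme activity.

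Across the 3 comparisons no member passed the adjusted threshold of 0.05. In sh-Gpc4 against sh-NT the edgeR quasi-likelihood test called 0 of 27773 genes, against 2657 at an unadjusted p under 0.05; in sh-Gpc2 against sh-NT it called 0, against 712 (2.56%), and in sh-Gpc4 against sh-Gpc2 it called 0, against 804. DESeq2 called 45, 0 and 0 genes in these comparisons and limma voom 0, 0 and 0, with no member among them. In sh-Gpc2 against sh-NT no member had an unadjusted p under 0.05 or groups that did not overlap, where 7.70% of all tested genes had such groups.

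**Figure D4:**
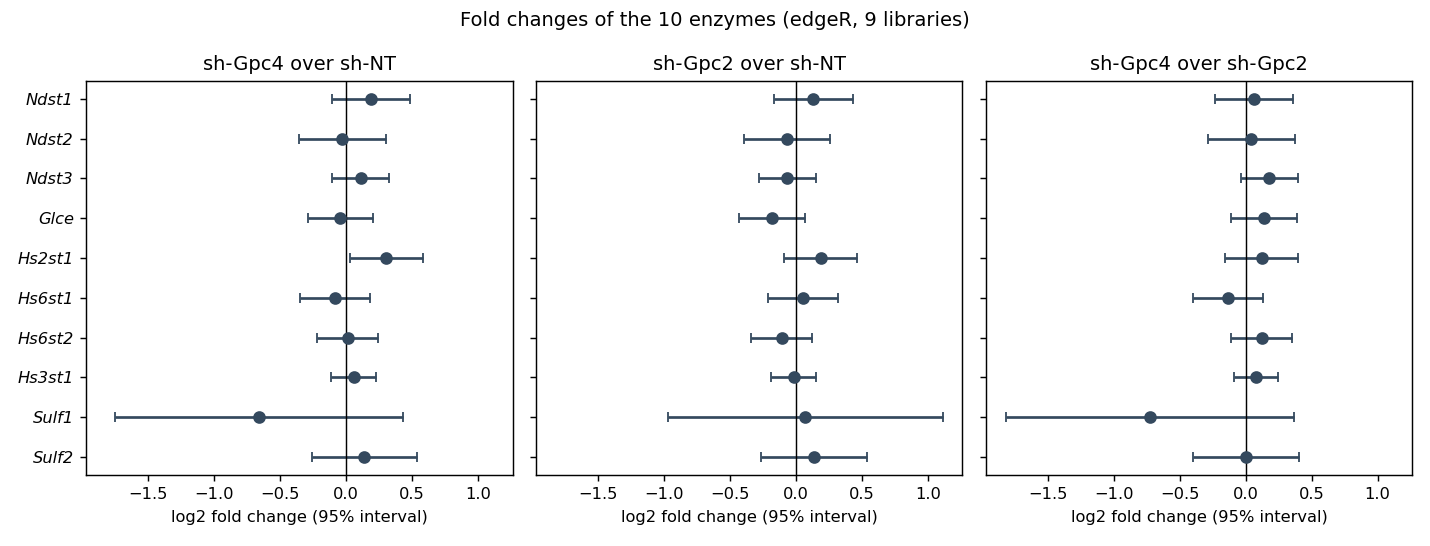
Log2 fold change of each member with its 95% interval from the edgeR quasi-likelihood test, for sh-Gpc4 over sh-NT, sh-Gpc2 over sh-NT and sh-Gpc4 over sh-Gpc2. All intervals cross 0 except that of Hs2st1 in sh-Gpc4 over sh-NT, whose adjusted p is 0.488, and the interval of Sulf1 is the widest.

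The fold changes of the members were small and of mixed sign. Relative to sh-NT, 6 members were above 0 and 4 below in sh-Gpc4, with a median log2 fold change of 0.03 against 0.02 over all tested genes. In sh-Gpc2, 5 were above 0 and 5 below, with a median of 0.02 against 0.0031 over all tested genes. These comparisons share the sh-NT libraries. The median absolute log2 fold change of the members was 0.0985 in sh-Gpc4 and 0.0888 in sh-Gpc2, against 0.208 and 0.145 over all tested genes, a set that also holds many genes of lower counts. Apart from Sulf1, the ratio 95% intervals of the members lay between 0.781 and 1.50 in sh-Gpc4 and between 0.742 and 1.45 in sh-Gpc2. A miss of the threshold does not show that levels were equal, and larger shifts than these bounds lie outside the single intervals.

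The genes that supply sulfate and build or break down the chain gave the setting of these values. Of 6 genes for supply of the sulfate donor PAPS, 6 were tested and none passed in either knockdown. Papss1, the PAPS synthase, had 126 ± 1.56 CPM in sh-Gpc4, 128 ± 10.9 in sh-Gpc2 and 127 ± 8.68 in sh-NT (SD, n = 3 each), and was picked out after its values were seen. The Golgi PAPS transporter Slc35b2 had 71.7, 57.4 and 80.7 CPM in sh-Gpc4 libraries, 77.8, 80.4 and 68.2 CPM in sh-Gpc2 libraries and 82.1, 82.6 and 99.1 CPM in sh-NT libraries. Both knockdown groups lay below the sh-NT libraries, which the comparisons share. Of all tested genes, 24.0% in sh-Gpc4 and 7.70% in sh-Gpc2 had groups that did not overlap with sh-NT, in either direction. The log2 fold change of Slc35b2 in sh-Gpc4 was -0.33 ± 0.14 (edgeR quasi-likelihood test, unadjusted p = 0.0401, adjusted p = 0.488) and in sh-Gpc2 -0.22. Without the libraries that lie apart it was -0.21 in sh-Gpc4 and -0.17 in sh-Gpc2. Bpnt1, which clears the by-product of sulfation, had log2 fold changes of 0.11 and 0.14, and the second PAPS synthase Papss2 of -0.05 and -0.15, in sh-Gpc4 and sh-Gpc2 relative to sh-NT.

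Of 5 chain polymerase genes, 4 were tested and none passed. Extl3, which starts the heparan sulfate chain, had 56.4, 16.3 and 30.7 CPM in sh-Gpc4 libraries, 72.8, 64.6 and 20.5 CPM in sh-Gpc2 libraries and 69.7, 84.4 and 72.4 CPM in sh-NT libraries. Its lowest values were those of the libraries that lie apart, and its highest library was 5.17 times its lowest. The log2 fold change of Extl3 was -1.13 ± 0.49 in sh-Gpc4 (edgeR quasi-likelihood test, unadjusted p = 0.0456, adjusted p = 0.488) and -0.52 in sh-Gpc2. Without those libraries the values were -0.81 and -0.15. Ext2, a subunit of the elongating polymerase, had 81.9, 48.4 and 76.8 CPM in sh-Gpc4, 81.2, 89.8 and 54.9 CPM in sh-Gpc2 and 82.4, 88.9 and 89.1 CPM in sh-NT, with log2 fold changes of -0.33 in sh-Gpc4 and -0.20 in sh-Gpc2 (-0.14 and -0.04 without those libraries). Its partner Ext1 had log2 fold changes of 0.18 and 0.21 in sh-Gpc4 and sh-Gpc2. Of 11 genes for breakdown, 10 were tested, 3 were above 0 and 7 below in each knockdown, and none passed. Among the lysosomal enzymes, Hgsnat and Sgsh had log2 fold changes of -0.47 and -0.73 in sh-Gpc4 and of -0.21 and -0.25 in sh-Gpc2. Without the libraries that lie apart, the values of Hgsnat were -0.31 and -0.11 and those of Sgsh were -0.48 and 0.04.

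**Figure D5:**
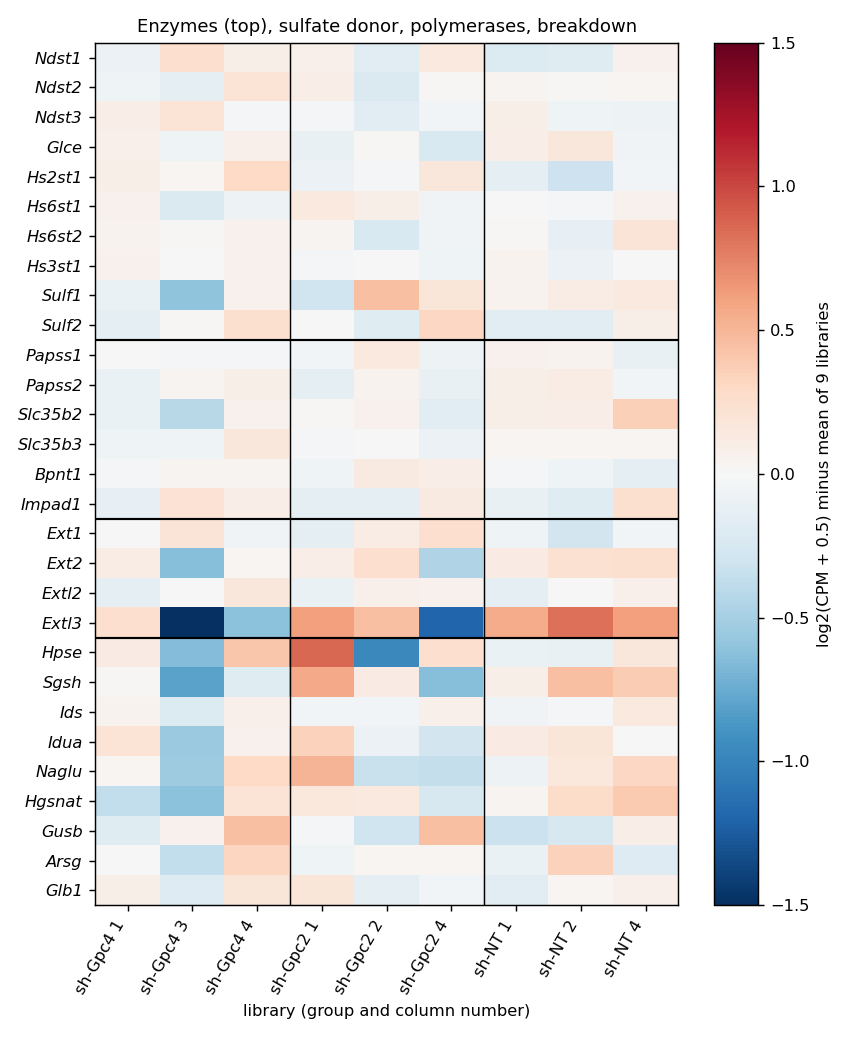
Deviation of pathway genes from their mean over the 9 libraries, as a colour on the log2(CPM + 0.5) scale, with 1 line per gene and 1 column per library, sh-Gpc4 leftmost and sh-NT rightmost. Extl3 shows its lowest values in sh-Gpc4 library 3 and sh-Gpc2 library 4 (16.3 and 20.5 CPM), where Hs3st1 had 138 and 131 CPM.

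The genes whose log2 CPM followed each member most closely over the 9 libraries are given as a description, since all points share the libraries, their depth and their composition. Of 10946 genes searched (10947 for Sulf1), Pearson's r was highest for Gusb with Sulf2 (0.990), followed among the members' closest genes by Rmnd5b with Hs6st2 (0.984), Acod1 with Sulf1 (0.969), Ckap4 with Ndst1 (0.962), Msrb2 with Hs2st1 (0.957) and Bbc3 with Hs6st1 (0.955). For Glce it was Dgkb (0.936), for Ndst2 Pcmtd1 (0.934), for Ndst3 Cdh8 (0.933) and for Hs3st1 Pus3 (0.914). The second closest genes were Pnp for Sulf2 (0.958), Tle4 for Hs6st2 (0.973), Srxn1 for Sulf1 (0.928), Klhl2 for Ndst1 (0.950), Asl for Hs2st1 (0.940), Junb for Hs6st1 (0.938), Kank3 for Glce (0.898), Dtx4 for Ndst2 (0.929), Epha7 for Ndst3 (0.931) and Kdm3a for Hs3st1 (0.889).

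The members are spread over the genome. On GRCm38 with GENCODE M21, Hs6st1 lies at chr1:36068400-36106446 (plus strand), Sulf1 at chr1:12692277-12861192 (plus), Sulf2 at chr2:166073089-166155663 (minus), Ndst3 at chr3:123526166-123690853 (minus), Hs2st1 at chr3:144429706-144570181 (minus), Hs3st1 at chr5:39613935-39755475 (minus), Glce at chr9:62057248-62122655 (minus), Ndst2 at chr14:20723730-20734562 (minus), Ndst1 at chr18:60684494-60748650 (minus) and Hs6st2 at chrX:51387212-51681856 (minus). All are protein-coding genes, and no 2 members of the same step lie on the same chromosome.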

How the data were processed

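Per the labels' protocols, RNA of the sorted cells was isolated with the PicoPure kit and made into libraries with a NEBNext low-input kit. The authors deposited raw read counts per gene in 1 table of 78275 gene IDs and 9 columns, made with featureCounts of Subread on GRCm38 (mm10), per the submitters' processing notes. Aligner, versions, annotation release and use of strand: not given in the sources used here. Columns were assigned to groups by name; their numbers do not match the replicate numbers of the titles. Symbols, lengths and sequences came from GENCODE M21, whose IDs matched 51486 IDs (65.8%).

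Counts were tested in R 4.3.3 with the edgeR 4.0.16 quasi-likelihood test on all 9 libraries (TMM, default filter on low counts, 27773 genes, Benjamini-Hochberg adjustment over all of them, threshold 0.05). The median degrees of freedom behind the intervals were 9.50. DESeq2 1.42.0 and limma 3.58.1 voom were alternatives, besides other filters, normalization, length scalings and leaving out libraries; leaving out the libraries that lie apart was added after seeing the data. The test was checked on simulated counts with the same spread for every gene and no libraries lying apart. That check does not show how the test behaves on the counts studied here. Within a group, chi-square divided by its degrees of freedom was 7.65 to 81.7 for pairs of libraries, above sampling noise, and all were kept as separate replicates.

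The members and the gene lists were chosen with earlier results of these data known. Named are all members and other isoforms, the hairpin targets, up to 3 genes per further list with the smallest unadjusted p against sh-NT, and the 2 genes with the highest r for each member; 1 gene that this rule names is not reported here. Sequences of Ndst1 and protein sequences were not used here. PCR copies cannot be recognised in a count table.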

Additional observations from a re-analysis of the deposited data

How the results depend on the processing

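No member passed the adjusted threshold under any alternative, and no other direction of a member changed than those named here. Of 139 values per comparison, 129 kept their direction for sh-Gpc4 over sh-NT, 131 for sh-Gpc2 over sh-NT and 127 for sh-Gpc4 over sh-Gpc2. The smallest adjusted p over these alternatives was 0.0531 (Hs2st1, voom), 0.711 and 0.455 in the same order. For sh-Gpc4 over sh-NT the number of genes called was 45 with DESeq2's Wald test (13 higher, 32 lower) and 0 in the other settings; the cause was not tested. The leading isoform of each step was the same under each length scaling: the Ndst3 share was 53.9% with merged exons; the Hs6st2 share 90.6% with merged exons, 89.5% with coding length and 93.1% unscaled; and the Hs3st1 share 90.5% with coding length and 89.4% unscaled. Between groups, deviations of same-numbered libraries had correlations of -0.10 to 0.68, and those of differently numbered libraries -0.87 to 0.83. These overlapping ranges do not settle whether the column numbers pair the libraries. A fit with a replicate block by column number called 0 genes in each comparison.

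Reversed log2 fold changes were all close to 0 or of Sulf1 and Sulf2. With the replicate block they were 0.066 for Glce and -0.046 for Hs6st2 (sh-Gpc4 over sh-NT), -0.00018 for Sulf1 (sh-Gpc2 over sh-NT) and -0.091 for Ndst1 (sh-Gpc4 over sh-Gpc2). With voom they were 0.086 for Ndst2 (sh-Gpc4 over sh-NT), -0.086 for Sulf1 (sh-Gpc2 over sh-NT) and 0.17 for Sulf2 (sh-Gpc4 over sh-Gpc2). For the last, DESeq2 size factors gave 0.0027 and its Wald test 0.0049. Without the libraries that lie apart, Ndst2 was at 0.038 (sh-Gpc4 over sh-NT), and Sulf2 at -0.035 (sh-Gpc2 over sh-NT) and 0.18 (sh-Gpc4 over sh-Gpc2). Leaving out 1 library at a time, the ranges that crossed 0 were, in sh-Gpc4 over sh-NT, -0.145 to 0.057 for Ndst2, -0.109 to 0.013 for Glce and -0.061 to 0.096 for Hs6st2; in sh-Gpc2 over sh-NT, -0.140 to 0.027 for Ndst2, -0.055 to 0.014 for Hs3st1, -0.33 to 0.40 for Sulf1 and -0.019 to 0.255 for Sulf2; and in sh-Gpc4 over sh-Gpc2, -0.030 to 0.138 for Ndst1, -0.077 to 0.114 for Ndst2 and -0.116 to 0.161 for Sulf2. A filter of more than 5 CPM removed Sulf1. Read counts were lowest for Sulf1, with 8 to 49 reads per library.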
